A study of Mus musculus with 9 samples.

Results

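The endothelial cells of the mouse epididymis, the inner lining of its blood and lymphatic vessels, were described here from single-cell RNA-seq of caput, corpus and cauda. A barcode was kept if it held 300 to 4000 genes, at most 20000 unique molecular identifiers (UMIs) and under 50% mitochondrial UMIs. Endothelial cells were chosen by UMI counts of marker genes: a barcode was taken if at least 3 of Pecam1, Cdh5, Emcn, Flt1, Egfl7 and Kdr had a UMI and fewer than 2 of Krt5, Krt14, C1qa and C1qc, which mark basal cells and macrophages, did. This rule gave 652 endothelial cells among 42087 kept barcodes, and the remaining 41435 barcodes are called the other cells. The 9 libraries came from C57BL/6 mice (C57BL/6J in the study's methods), with no treatment named in the labels, at postnatal day 42 (P42, 1 library for each segment) and postnatal day 56 (P56, replicates 1 and 2 of each segment). The study used 5 mice at P42 and 10 at P56, and the segments of several mice were pooled in a library, so no value belongs to a single animal. Whole segments were digested with enzymes, treated with red-cell lysis buffer and captured on a microfluidic chip, with no sorting for vessels. The segment libraries of the same age and replicate number were taken as 1 pool of mice, giving 3 pools.

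Endothelial cells form a sheet sealed by VE-cadherin (Cdh5) and Claudin 5 (Cldn5), and they respond to vascular endothelial growth factors through the receptors Flt1, Kdr and Flt4. Arterial, capillary, venous and lymphatic endothelium use partly different genes: Prox1 is the transcription factor that sets lymphatic identity, Lyve1 a hyaluronan receptor on initial lymphatic vessels, Flt4 the receptor for VEGF-C, and Mmrn1 a secreted multimerin of lymphatic endothelium. Esm1, or endocan, is a secreted proteoglycan known from the tip cells of sprouting vessels, and Rgcc is a cell-cycle regulator used as a marker of capillaries.

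The promoters of 4 endothelial genes are printed here because these genes were called between the caput and the other segments in the results that follow. They are RefSeq sequences on GRCm38.p6 from 250 bases before to 50 bases after the gene start, and are shown for a pair of lymphatic genes lower in the caput (Mmrn1, at chr6:60944067-60944366 on the plus strand, and Flt4, at chr11:49609429-49609728 on the plus strand) and a pair of genes higher in the caput (Esm1, at chr13:113209409-113209708 on the plus strand, and Rgcc, at chr14:79301586-79301885 on the minus strand). Capitals mark any match, on either strand, to short core motifs of transcription-factor families of endothelium. For ETS factors the letters AGGAAG were searched, for factors of the GATA family the letters GATAAG, and for SOX factors the letters ACAATG.
Mmrn1: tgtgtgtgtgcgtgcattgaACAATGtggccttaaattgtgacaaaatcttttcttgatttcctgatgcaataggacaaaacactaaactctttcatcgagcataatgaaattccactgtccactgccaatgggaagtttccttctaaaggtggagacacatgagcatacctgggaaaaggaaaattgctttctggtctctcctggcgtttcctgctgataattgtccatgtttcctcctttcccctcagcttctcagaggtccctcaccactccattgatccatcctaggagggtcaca
Flt4: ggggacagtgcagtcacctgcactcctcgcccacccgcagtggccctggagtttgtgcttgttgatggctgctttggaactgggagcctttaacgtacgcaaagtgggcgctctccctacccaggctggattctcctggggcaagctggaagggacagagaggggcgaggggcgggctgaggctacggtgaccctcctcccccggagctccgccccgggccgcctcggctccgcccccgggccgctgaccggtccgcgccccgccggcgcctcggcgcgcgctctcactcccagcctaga
Esm1: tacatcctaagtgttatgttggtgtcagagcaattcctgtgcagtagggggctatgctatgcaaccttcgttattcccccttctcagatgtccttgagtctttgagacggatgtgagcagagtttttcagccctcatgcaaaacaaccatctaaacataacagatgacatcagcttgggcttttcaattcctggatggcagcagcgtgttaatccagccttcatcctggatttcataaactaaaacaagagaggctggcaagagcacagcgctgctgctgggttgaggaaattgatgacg
Rgcc: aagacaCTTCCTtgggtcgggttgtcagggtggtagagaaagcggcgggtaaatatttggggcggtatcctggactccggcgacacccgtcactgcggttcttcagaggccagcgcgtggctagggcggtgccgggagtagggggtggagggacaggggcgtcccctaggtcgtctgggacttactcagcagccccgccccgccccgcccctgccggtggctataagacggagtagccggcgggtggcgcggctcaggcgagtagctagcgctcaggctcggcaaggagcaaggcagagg
Mmrn1 held 1 match to the SOX letters, Rgcc held 1 match to the ETS letters on the opposite strand, and no match was found in the windows of Flt4 and Esm1. Of 32851 RefSeq promoters of the same length, 35.4% held the ETS letters, 7.44% the GATA letters and 12.6% the SOX letters, so these matches are a description of the sequence only. Of 15 genes looked for, 11 had a promoter entry. The GC content was 44.3% for Mmrn1, 70.3% for Flt4, 46.3% for Esm1 and 66.7% for Rgcc.

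The label of the cells was checked with 18 pan-endothelial genes outside the 6 of the rule. The median of their ratios of mean CPM (UMIs of a gene per 1000000 UMIs of the sum) in the summed endothelial cells to that in the other cells was 48.5, from 4.11 for Cd34, which stromal cells also use, to 99.0 for Sox18, and 17 of the 18 were over 10. A median of 8 of the 18 genes was detected in an endothelial cell and of 0 in another cell, with median depths of 6152.5 and 5543 UMIs. These values describe the chosen cells and carry no test. At the edge of the rule, the 206 cells with just 3 of the 6 genes had a median of 4 of the 18 genes, and the 459 barcodes with 2 of the 6 genes, which were left out, had a median of 1. A further 134 barcodes with at least 3 of the 6 genes were left out for carrying 2 or more of the excluding genes, and their median was 7.

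Among 2776 genes at 50 CPM or more in the endothelial sums, the ratios to the other cells were led by lymphatic genes and by genes of vessel identity. Mmrn1 was at 131 times, Prox1 at 115 times and Flt4 at 89.6 times the level in the other cells. Among the genes of blood vessels, the guidance receptor Robo4 was at 86.2 times, the arterial transcription factor Sox17 at 83.9 times, the pan-endothelial transcription factor Erg at 78.4 times and Cldn5 at 70.4 times. Gpihbp1, which holds lipoprotein lipase on the capillary wall, was at 66.9 times, and the drug-efflux pump Abcb1a, known from blood-tissue barriers, was at 72.2 times. Leaving out 1 library moved these ratios, to 98.4 (without the cauda P42 library) to 157 for Mmrn1, 59.5 (without the cauda P42 library) to 161 for Prox1 and 77.6 to 120 for Flt4, and the order of the genes moved with it. Without the caput P42 library the ratio was 173 for Robo4, 148 for Sox17, 123 for Erg and 109 for Gpihbp1. These ratios show that the rule gathered blood and lymphatic endothelium together, although none of its 6 genes is specific to lymphatic vessels.

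Transcripts of other cells were also present in the endothelial sums. The 15 principal-cell markers include genes of secreted proteins of the epididymal epithelium such as Lcn5 and Crisp1. They summed to between 1396 and 105470 CPM per library in the endothelial cells against 6181 to 146310 CPM in the other cells. The 7 fibroblast markers summed to 51553 CPM in the cauda P42 library and to at most 2970 CPM in the remaining 8 libraries. At least 2 of 7 pericyte markers were found in 0% to 16.2% of the endothelial cells of a library, against 0.350% to 2.72% of the other cells. Globin genes and Alas2 summed to 667 to 21134 CPM, 6 lymphocyte genes to at most 52.3 CPM and 7 macrophage genes, 2 of them used to exclude cells, to at most 285 CPM. Of 44631 barcode sequences 143 occurred in more than 1 library, 5 of them in endothelial cells and 0 between endothelial cells of different libraries. When the endothelial cells were clustered, 5 of 10 clusters, with 272 of the 652 cells (41.7%) and 23.9% to 83.3% of a library, had no gene of the vessel or cycling lists among their 10 leading genes. They were led by genes of principal cells, clear cells or fibroblasts, and the comparisons of expression are also given without these clusters. The shares of endothelial cells and their mitochondrial percentages were not recomputed without them. The cauda library of P56 replicate 2 then kept 2 cells and was left out of the fit.

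Endothelial cells made up 6.58% of kept barcodes in the caput at P42 (277 of 4209, 95% exact binomial interval 5.85% to 7.37%), 1.19% in the caput of P56 replicate 1 and 2.40% in that of replicate 2. The corpus held 1.47%, 0.783% and 0.468% in the same order, and the cauda 0.349%, 0.947% and 0.246%. The caput share was the highest in every pool, but its lowest value overlapped with the corpus at P42. Segment means (± SD, n = 3 libraries each) were 3.39% ± 2.83 for caput, 0.906% ± 0.512 for corpus and 0.514% ± 0.378 for cauda. The caput exceeded the mean of corpus and cauda by 2.68 percentage points (two-sided exact permutation test within pools, p = 0.037, the smallest that 27 assignments allow; 0.0556 after Benjamini-Hochberg adjustment over 3 tests). Within pools the difference was 5.67 points at P42, 0.327 in P56 replicate 1 and 2.05 in P56 replicate 2, so the P42 pool carried most of it. With barcodes of at least 1000 UMIs thinned to 1000 UMIs the shares were 1.21%, 0.175% and 0.0650%, and the difference of 1.09 points held in 2 of 3 pools (exact permutation p = 0.111). Barcodes below 1000 UMIs were left out of these shares, 381 of them in the cauda P42 library and at most 51 in any other library. Binomial intervals cover counting error alone.

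The mitochondrial share of UMIs was lower in caput endothelial cells. The median caput cell had 5.92% mitochondrial UMIs at P42, 7.46% in P56 replicate 1 and 6.11% in P56 replicate 2. The corpus medians were 11.2%, 14.9% and 20.3%, and the cauda medians 6.10%, 17.4% and 14.6%. The caput lay below the corpus in every pool, whereas the cauda at P42 was close to the caput. The difference from the mean of corpus and cauda was -7.58 points (exact permutation p = 0.037, adjusted 0.0556), and within pools it was -2.75, -8.68 and -11.3 points. The other cells followed the same order, with means of 6.25%, 18.9% and 14.1% and a difference of -10.2 points. The endothelial difference minus that of the other cells was 2.65 points (exact permutation p = 0.148). When mitochondrial UMIs were summed over the cells of each library in place of the median cell, the difference was -7.29 points with an exact permutation p of 0.0741. The clusters led by genes of other cells had medians of 5.15% to 15.2%, and the remaining clusters 6.24% to 7.89%. The highest was a cluster of 59 cells led by Npy and Defb9, with 0% to 1.44% of a caput library and 6.25% to 58.3% of a corpus or cauda library. The part of these clusters in the difference was not tested. In the summed counts of endothelial cells, 0 of 8 mitochondrially encoded genes were called lower in the caput by edgeR, with a median log2 fold change of -0.84, 6 of them at an unadjusted p under 0.05 and 1 called by DESeq2.

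**Figure D1:**
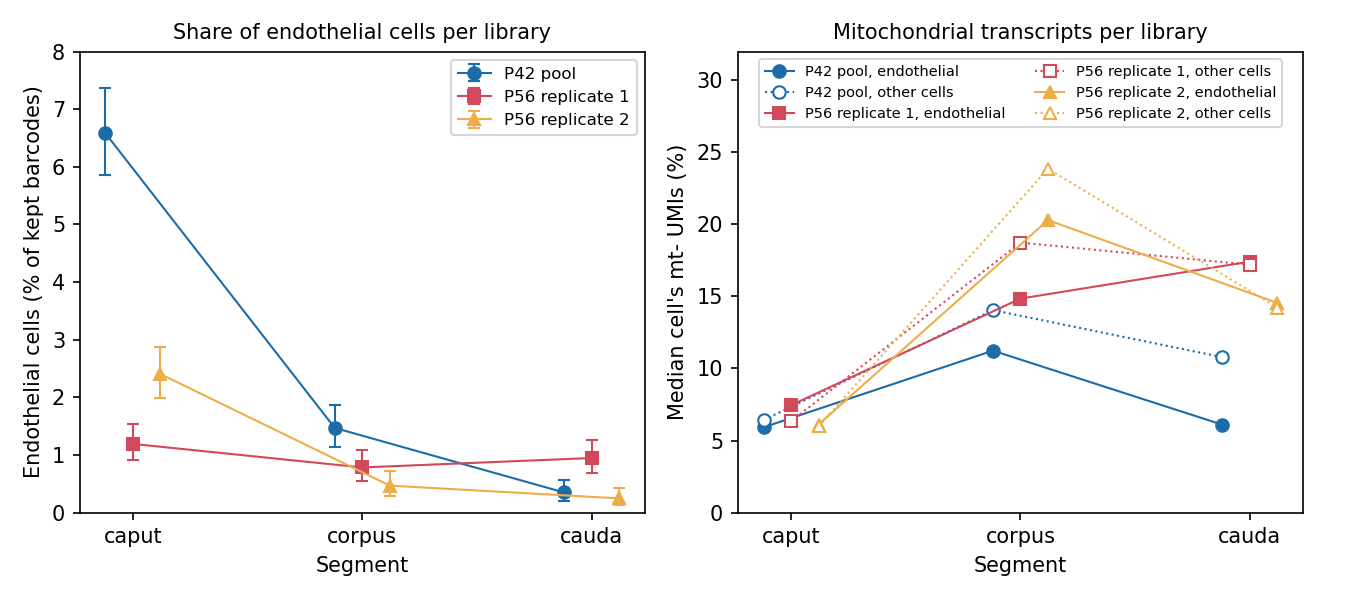
Left, endothelial cells as a percentage of kept barcodes (y axis) in caput, corpus and cauda (x axis), with 1 point for each library and lines joining the libraries of a pool of mice. Right, the percentage of mitochondrial UMIs in the median cell, for endothelial and other cells. The caput shares lie between 1.19% and 6.58%, and the caput mitochondrial medians between 5.92% and 7.46% in endothelial cells.

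Expression was compared between segments after the UMIs of the endothelial cells of each library were summed, giving 98113 to 2096581 UMIs in a sum. The caput was set against the mean of corpus and cauda with edgeR's quasi-likelihood test and a term for the pool, and a gene was called if its Benjamini-Hochberg adjusted p was under 0.05 and its log2 fold change at least 1 in size. Of 4830 genes tested 359 were called (7.43%), 213 higher in the caput (4.41%) and 146 lower (3.02%). Without the term for the pool 268 were called. Among the principal-cell markers 12 of 15 were called higher in the caput and 2 lower, with a median log2 fold change of 8.05 against 0.05 over all genes. The smooth-muscle gene Actg2 was called higher and the fibroblast gene Col3a1 lower. The part of such transcripts in the 359 calls was not tested beyond the following split. Of the 733 tested genes whose mean level was at least 2 times that of the other cells, 32 were called (4.37%), 7 higher (0.955%) and 25 lower (3.41%). The genes named below came from these 733 or from the gene lists, of which the immediate early and heat-shock lists are not particular to endothelium.

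Lymphatic genes were lower in the caput. Of the 7 genes of the list 5 were tested and 4 were called lower, Lyve1, Mmrn1, Prox1 and Flt4. The median of the 5 was -2.46, and the share of all genes called lower was 3.02%. By their caput levels alone none of the 4 would have passed the filter on low counts. They were tested through corpus and cauda, where they were high, so the count is no support when set against that share. Pdpn, which the other cells carried at a similar level, was at a log2 fold change of -0.25 and was not called, and Reln and Ccl21a had too few UMIs to be tested.

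Lyve1 stood at 63.9, 66.9 and 2.30 CPM in the caput (P42, P56 replicate 1 and P56 replicate 2), at 1863, 690 and 155 CPM in the corpus and at 1865, 161 and 267 CPM in the cauda. Every caput library was below every corpus and cauda library. The log2 fold change was -4.23 ± 0.63 (SE, adjusted p = 4.1e-04), and Lyve1 was called in all 21 other settings. The other cells held at most 3.94 CPM of Lyve1 in the caput and up to 159 CPM in the cauda at P42. In sums of cells, fewer lymphatic cells and less RNA in each cannot be told apart.

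Mmrn1 was at 87.8, 22.3 and 0 CPM in the caput, at 920, 136 and 60.5 CPM in the corpus and at 612, 78.9 and 89.1 CPM in the cauda. The caput was lowest in each pool, although the caput at P42 overlapped with the P56 values of the other segments. Its log2 fold change was -3.25 ± 0.48 (adjusted p = 3.9e-04), and the call was lost in 1 of 21 settings, the fit without the pool term (adjusted p = 0.161).

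Prox1 was at 31.5, 30.7 and 0 CPM in the caput, at 256, 28.2 and 8.64 CPM in the corpus and at 418, 33.4 and 17.8 CPM in the cauda. The difference of -2.46 ± 0.62 (adjusted p = 0.0240) rested on the P42 pool and on P56 replicate 2, since in P56 replicate 1 the 3 segments were at 28.2 to 33.4 CPM. The call ended without the caput P42 library (-0.65, adjusted p = 0.729), without the caput library of P56 replicate 2 (-2.30, 0.0612) and without the corpus library of P56 replicate 2 (-2.40, 0.0547). It also ended in DESeq2 (-2.20, 0.0653), without the pool term (-2.59, 0.226) and in cells with at least 4 of the 6 genes of the rule (-1.32, 0.547), where 2 cauda libraries fell under 10 cells and were left out of the fit.

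Flt4 was at 42.9, 11.2 and 10.4 CPM in the caput, at 235, 84.5 and 8.64 CPM in the corpus and at 122, 18.2 and 17.8 CPM in the cauda. The groups overlapped, and the log2 fold change was -1.68 ± 0.42 (adjusted p = 0.0226). The call ended without the library of the caput at P42 (adjusted p = 0.338), the corpus at P42 (0.105), the caput of P56 replicate 1 (0.166) or the corpus of P56 replicate 1 (0.0575). With at least 4 of the 6 genes the value fell to -0.38 (adjusted p = 0.930). The call was also lost with at least 2 genes (-1.44, 0.0806), without the pool term (-1.65, 0.261) and without the clusters led by genes of other cells (-1.69, 0.0641), so it was lost in 8 of 21 other settings.

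Genes that the rule for named genes picked beside these included several at high ratios to the other cells that also fell in the caput. Fgl2, a fibrinogen-like secreted protein, was at 80.6, 41.8 and 17.3 CPM in the caput, at 1199, 314 and 138 CPM in the corpus and at 1325, 75.8 and 160 CPM in the cauda. A single pair overlapped, the caput at P42 and the cauda of P56 replicate 1. The log2 fold change of Fgl2 was -3.24 ± 0.45 (adjusted p = 2.3e-04) and it was called in all 21 other settings. Klhl4 was lower by a log2 fold change of -2.18 ± 0.35 (adjusted p = 8.6e-04), and that call ended without the caput P42 library (adjusted p = 0.116). The adhesion receptor Adgrg3 was at -3.41 (adjusted p = 0.00780) on 70 UMIs in all, the polarity gene Pard6g at -2.71 (0.00578) and the matrix gene Abi3bp at -2.47 (0.0138). Without the caput P42 library the adjusted p of Pard6g was 0.279 and that of Abi3bp 0.391. Adgrg3 was no longer called without the corpus P42 library (adjusted p = 0.0782) or without the caput library of P56 replicate 1 (0.0530), Pard6g without the cauda P42 library (0.0691) and Abi3bp without the corpus P42 library (0.0525). With at least 4 of the 6 genes Adgrg3 was at -0.43 (adjusted p = 0.974), Pard6g at -1.07 (0.702) and Abi3bp at -1.35 (0.439). Without the pool term Klhl4 (adjusted p = 0.151), Pard6g (0.145), Abi3bp (0.111) and Adgrg3 (0.0861) were not called.

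Cell by cell, 64 of the 652 endothelial cells carried at least 2 of the 7 lymphatic genes. They were 28 of 453 in the caput (6.18%, exact interval 4.15% to 8.81%), 28 of 125 in the corpus (22.4%, 15.4% to 30.7%) and 8 of 74 in the cauda (10.8%, 4.78% to 20.2%). Among the other cells the same share was 0.731%, 1.11% and 1.92%. In the caput libraries it was 8.66%, 5.17% and 0.847%, in the corpus 34.3%, 10.8% and 4.76%, and in the cauda 25.0%, 6.52% and 8.33%, so the caput had the lowest share in every pool. The P56 shares rested on few cells, 3, 4 and 3 cells in caput, corpus and cauda of replicate 1 and 1 cell in each segment of replicate 2. Without the P42 pool the shares were 2.27% (4 of 176, exact interval 0.623% to 5.72%), 8.62% (5 of 58, 2.86% to 19.0%) and 6.90% (4 of 58, 1.91% to 16.7%), and their intervals overlapped. All such intervals pool cells over libraries and cover counting error alone, and each corpus library lay outside the corpus interval of 15.4% to 30.7%. No test between segments was made on these shares. Of these 64 cells 20.3% had a UMI of Flt1, against 83.8% of the remaining endothelial cells, while Kdr was found in 92.2% and Pecam1 in 85.9%. Flt1 and Kdr are genes of the rule, so these shares only describe by which genes lymphatic cells entered the set.

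**Figure D2:**
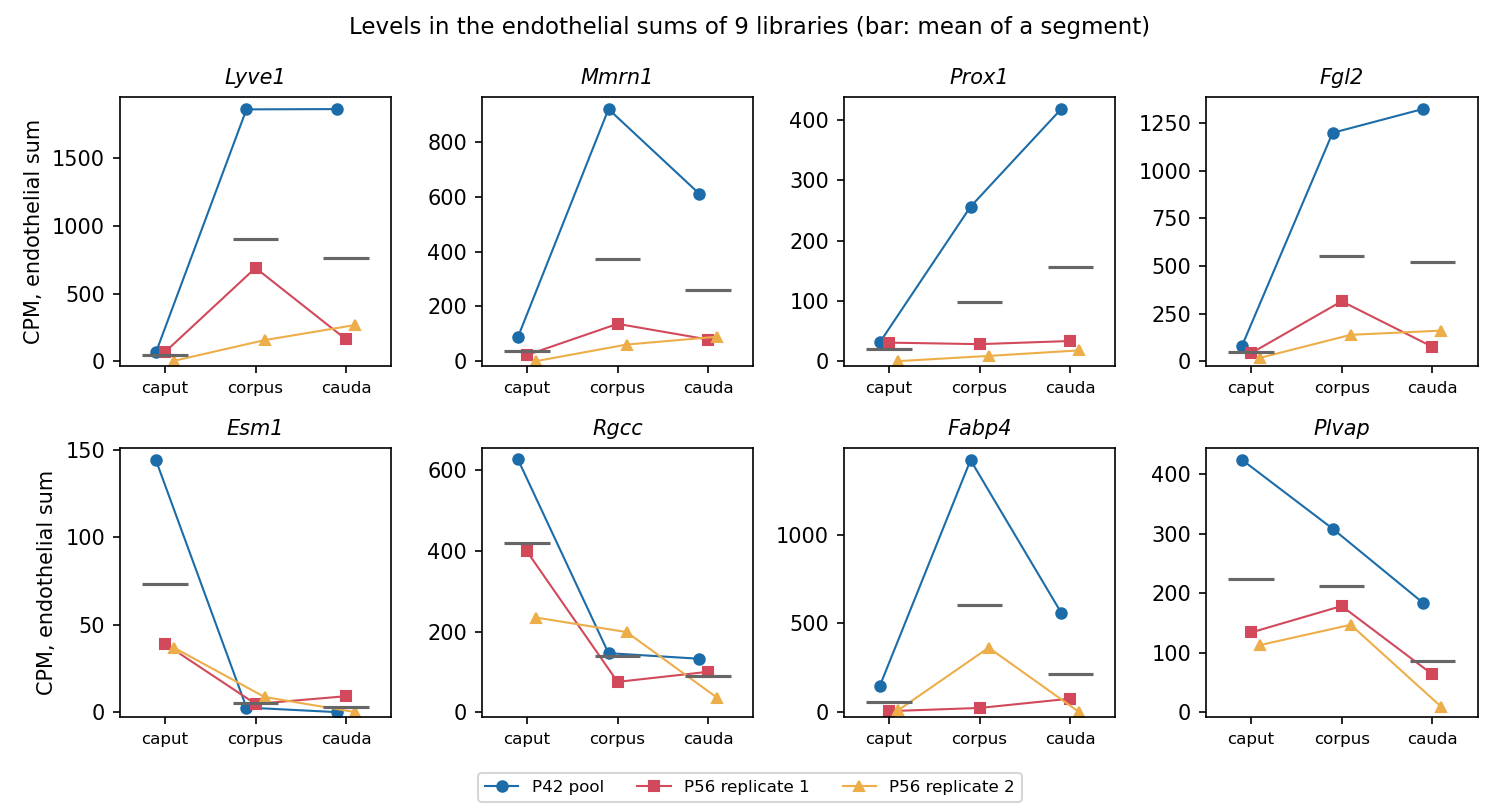
CPM in the endothelial sum of each library (y axis, a separate scale for each gene) in caput, corpus and cauda (x axis) for 8 genes. Points are libraries, lines join the libraries of a pool of mice and bars are segment means. Lyve1 stays at 66.9 CPM or less in the caput, and Esm1 at 9.10 CPM or less outside it.

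Genes higher in the caput endothelium were led by Ssu2 and Esm1. Esm1 was the single call of 3 sprouting genes tested, of 10 in the list, and with no filter on low counts it was 1 of 10. Esm1 had enough UMIs to be tested through the caput alone. The 1 of 3 is therefore no support when set against the 4.41% of all genes called higher. In the test against the other cells described below 0 of 10 sprouting genes were called. Esm1 was at 144, 39.0 and 36.8 CPM in the caput, at 2.61, 4.69 and 8.64 CPM in the corpus and at 0, 9.10 and 0 CPM in the cauda. The caput libraries were all above the others, with a log2 fold change of 3.80 ± 0.57 (adjusted p = 4.7e-04), and the call held in the 18 other settings in which Esm1 was tested. It did not pass the filter on low counts without the caput P42 library, without the caput library of P56 replicate 1 and without cells over 10% globin, so whether the call depends on these libraries was not tested. An Esm1 UMI was found in 102 of 453 caput endothelial cells (22.5%, exact interval 18.8% to 26.6%), in 3 of 125 in the corpus (exact interval 0.498% to 6.85%) and in 2 of 74 in the cauda (0.329% to 9.42%). Of the 102 cells 79 came from the caput P42 library (28.5% of its cells), and the shares in the P56 caput libraries were 15.5% and 11.9%. Each caput library lay outside the caput interval, and such intervals pool cells over libraries and cover counting error alone. Without the P42 pool the shares were 13.1% in the caput (23 of 176, exact interval 8.47% to 19.0%) and 3.45% (2 of 58, 0.420% to 11.9%) in corpus and in cauda, and the intervals overlapped. No test between segments was made on these shares. In the other cells the shares were 0.953%, 0.132% and 0.0211%, with median depths of 6081, 4196 and 6100.5 UMIs against 6578, 4989 and 6339 UMIs in the endothelial cells.

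Rgcc was at 627, 399 and 235 CPM in the caput, at 146, 75.1 and 199 CPM in the corpus and at 132.5, 100.1 and 35.6 CPM in the cauda. The groups did not overlap and the log2 fold change was 1.81 ± 0.33 (adjusted p = 0.00238), which became 1.67 (adjusted p = 0.0610) without the caput library of P56 replicate 1. A UMI of Rgcc was found in 59.4% of caput, 35.2% of corpus and 36.5% of cauda endothelial cells, against 7.40%, 2.86% and 6.43% of the other cells. These shares pool cells over libraries, and 170 of the 269 caput cells came from the P42 library. By library (P42, P56 replicates 1 and 2) they were 61.4%, 51.7% and 58.5% in the caput and 35.8%, 24.3% and 52.4% (11 of 21) in the corpus. In the cauda they were 31.25%, 41.3% and 25.0%. No test between segments was made on these shares.

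Ssu2 was at 61.5, 36.2 and 23.0 CPM in the caput and at 5.23, 14.1 and 34.5 CPM in the corpus, and it had no UMI in the cauda. Caput and corpus overlapped. Its 162 UMIs in the caput made the caput level at least 8.77-fold higher than that in the cauda, taking 3 UMIs over the cauda libraries as the floor. The fitted contrast was called (adjusted p = 0.0222), and was no longer called without the cauda library of P56 replicate 1 (adjusted p = 0.0766). The other genes of the 7 were Fam167b (log2 fold change 1.53 ± 0.34, adjusted p = 0.00970), the receptor phosphatase Ptprg (1.12 ± 0.30, 0.0341), the actin regulator Rflnb (1.09 ± 0.27, 0.0238) and the Rac exchange factor Prex2 (1.07 ± 0.28, 0.0274). Ptprg was lost in 11 and Prex2 in 11 of 21 other settings, Rflnb in 9 and Fam167b in 4.

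Among genes that mark arteries and veins edgeR called none in the caput against corpus and cauda, and 4 of 7 capillary genes were called, where 7.43% of all genes were. The arterial and venous lists are too short to tell 0 calls from that share, and the lists were not compared by a test. Of 7 arterial genes tested 0 were called in edgeR or DESeq2, with a median log2 fold change of 0.41 and 1 gene at an unadjusted p under 0.05. This gene, the gap-junction gene Gja4, had the largest value of the list, 1.12 ± 0.36 (adjusted p = 0.0785), from 167, 72.5 and 72.5 CPM in the caput, 152, 37.5 and 25.9 CPM in the corpus and 51.0, 33.4 and 0 CPM in the cauda. Gja5, another arterial connexin, was found in 5.52% of caput and 3.20% of corpus endothelial cells and in 0 of 74 in the cauda (exact interval up to 4.86%), and 45 of its 53 UMIs came from the caput P42 library. Of 5 venous genes 0 were called in edgeR, with a median of -0.93, 2 at an unadjusted p under 0.05 (Nr2f2 and Selp) and 1 called by DESeq2. The endothelial selectin Selp was at -2.13 ± 0.62 (adjusted p = 0.0523) and the chemokine receptor Ackr1 at -1.41 ± 0.70 (0.280).

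Of 7 capillary genes tested, Rgcc was called higher in the caput (4.41% of all genes were) and the fatty-acid genes Fabp4 and Cd36 and the carbonic anhydrase Car4 were called lower (3.02% of all genes were). Fabp4, a fatty-acid carrier of capillary endothelium and fat, was at 150, 5.58 and 10.4 CPM in the caput, at 1419, 23.5 and 363 CPM in the corpus and at 561, 75.8 and 0 CPM in the cauda. The groups overlapped, and the value of -3.02 ± 0.65 (adjusted p = 0.00892) was no longer called without the caput library of P56 replicate 1 (adjusted p = 0.0705) or 2 (0.0767). Fabp4 was at -0.88 (adjusted p = 0.735) without the clusters led by genes of other cells and at -1.29 (0.988) with at least 4 of the 6 genes. It was also lost with at least 2 genes (-2.86, 0.0587) and without the pool term (-2.54, 0.312). Cd36, the fatty-acid translocase, was at -2.10 ± 0.47 (adjusted p = 0.0123), and the call ended without the caput P42 library (0.148), the cauda P42 library (0.616) or the corpus library of P56 replicate 2 (0.0546), and without the pool term (-1.73, 0.379). Its direction turned to 0.93 in cells with at least 4 of the 6 genes (adjusted p = 0.878) and to 0.49 without the clusters led by genes of other cells (0.863). Car4 was at 222, 235 and 147 CPM in the corpus endothelial sums and at 343, 509 and 440 CPM in the corpus other cells, so it was not particular to endothelium there. Its call was lost in 7 of 21 other settings, with values of -2.58 to -1.12 over the 21. Gpihbp1 (-0.23 ± 0.25) and the lipase Lpl (-1.05 ± 0.44) were not called.

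Of the 7 genes of caveolae and the fenestral diaphragm 0 were called in edgeR or DESeq2 (2 at an unadjusted p under 0.05), with Plvap, the diaphragm protein, at 0.65 ± 0.29 (adjusted p = 0.228) and Cav1 at -0.34 ± 0.23. The pan-endothelial genes (16 tested, median 0.02), endothelial transcription factors (13, -0.05), junction genes (8, 0.14), basement membrane genes (9, 0.08), coagulation genes (5, 0.17), interferon and class I genes (11, -0.41) and Notch pathway genes (4, 0.08) likewise had 0 calls in edgeR or DESeq2, and from 0 to 2 genes of each list were at an unadjusted p under 0.05. In the VEGF list Flt4, whose call was lost in 8 of 21 other settings, was the single call of 4 genes tested, where 3.02% of all genes were called lower. Flt4 passed the filter on low counts through corpus and cauda, so this count is no support either. Of the barrier transport list the amino-acid transporter Slc7a5 was called higher (1.45 ± 0.34, adjusted p = 0.0176), and the other cells of the caput, at 62.2 to 83.9 CPM, carried it as well as the endothelial sums of the caput, at 43.4 to 86.4 CPM. That call was lost in 10 of 21 other settings. These counts cover genes with enough UMIs to test, and the median of all 4830 genes was 0.05.

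**Figure D3:**
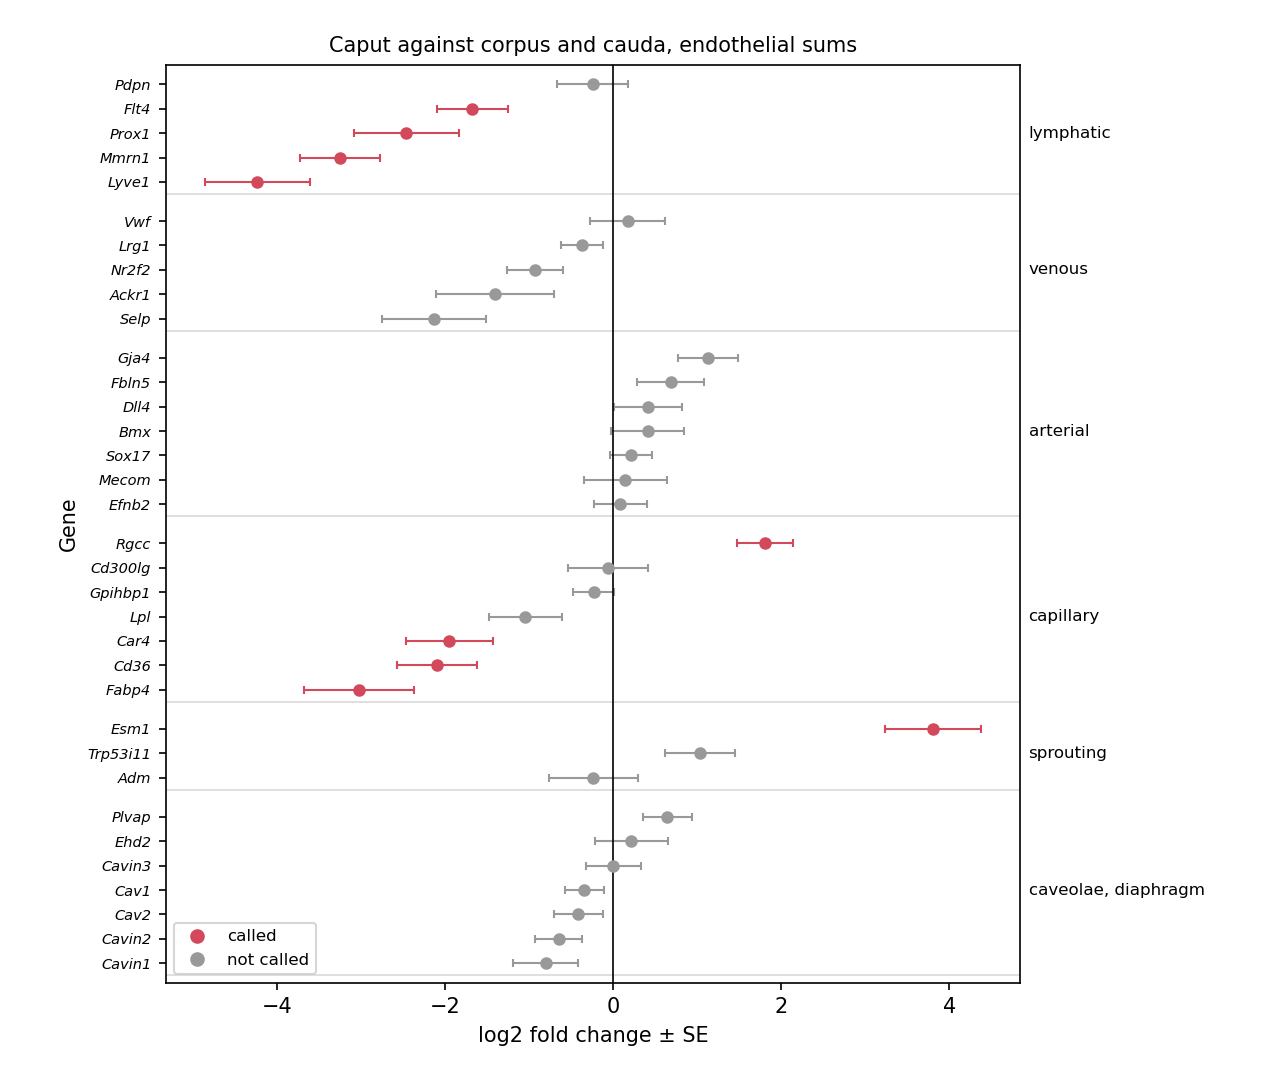
Log2 fold change with its SE (x axis) of each tested gene of 6 endothelial gene lists (y axis), caput against the mean of corpus and cauda. Red points passed the adjusted p and fold thresholds and grey points did not. Of the lymphatic genes 4 of 5 are red and lie below 0, whereas the arterial and venous genes are grey.

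Of 15 immediate early genes, which cells switch on within minutes of a stimulus, 3 were called lower in the caput (Fosb, Egr1 and Atf3), with a median of -0.95, where 3.02% of all genes were called lower. Fosb was at 167, 25.1 and 13.8 CPM in the caput, 167, 206 and 259 CPM in the corpus and 510, 212 and 374 CPM in the cauda. The other cells held 139, 20.8 and 15.0 CPM of Fosb in the caput, in step with the endothelial sums. The value was -2.32 ± 0.54 (adjusted p = 0.0158), and without the caput library of P56 replicate 1, or that of replicate 2, the adjusted p was 0.152 and 0.0730. Of 8 heat-shock genes Hspa1b and Dnajb1 were called lower. Both were lost without the caput library of P56 replicate 1 (adjusted p = 0.270 and 0.0885), without that of replicate 2 (0.134 and 0.0746) and without the clusters led by genes of other cells (0.207 and 0.0601), and in all Hspa1b was lost in 7 and Dnajb1 in 3 of 21 other settings. Klf4, a transcription factor induced by flow, was lower by -1.38 ± 0.30 (adjusted p = 0.0106), and its adjusted p was 0.184 and 0.0963 without each of the same libraries. Without the caput library of P56 replicate 1 the count of immediate early calls was 0, and without the caput P42 library it was 10. Without the clusters led by genes of other cells it was 1, Fosb, and without the pool term it was 1, Atf3. Without the pool term Fosb (-2.03, adjusted p = 0.0878), Egr1 (-1.11, 0.256), Klf4 (-1.23, 0.129) and Hspa1b (-1.44, 0.114) were not called.

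The cauda differed from the corpus in fewer genes. Of 4830 genes 38 were called (0.787%), 11 higher in the cauda (0.228%) and 27 lower (0.559%), and 2 of them were among the 733 endothelial genes (0.273%). Without the cauda P42 library 204 were called and the split turned, with 137 higher and 67 lower. Without the term for the pool 8 genes were called. Fstl1, a secreted follistatin-like protein, was at 713, 63.7 and 71.3 CPM in the cauda and at 165, 32.9 and 8.64 CPM in the corpus (1.92 ± 0.36, adjusted p = 0.0204). Fstl1 was higher in the cauda in every pool, but this was a condition of being named and adds no support. The other cells at P42 carried 368 CPM of Fstl1 in the cauda and 79.9 CPM in the corpus. Fibroblast markers moved with it: Col3a1 was called higher in the cauda (3.35 ± 0.64, adjusted p = 0.0230), 1 of 5 fibroblast genes tested, with a median of 2.79, and the cluster led by fibroblast genes held 5 of the 16 endothelial cells of the cauda P42 library. Without the clusters led by genes of other cells Fstl1 was at 1.09 (adjusted p = 0.856), and the 2 endothelial genes then called were Cd36 and Fabp4, both lower in the cauda. Lrg1, a secreted glycoprotein of veins, was at 255, 227 and 44.5 CPM in the cauda and at 679, 558 and 345 CPM in the corpus (-1.53 ± 0.31, adjusted p = 0.0372), with no overlap between the segments. The other cells held 31.0 to 70.8 CPM of Lrg1 in the cauda and 48.4 to 57.7 CPM in the corpus. Fstl1 was lost in 8 and Lrg1 in 11 of 21 other settings, including the removal of single libraries (Lrg1 without the corpus P42 library, adjusted p = 0.150, and Fstl1 without it, 0.372). Of the 5 lymphatic genes tested 0 were called between cauda and corpus by edgeR or DESeq2, with a median of -0.31 and 1 gene, Flt4, at an unadjusted p under 0.05.

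Age could be compared in the caput, where the P42 library held 277 endothelial cells and the P56 libraries 58 and 118. Each P42 segment had 1 library, so the spread came from the P56 replicate pairs of the 3 segments alone, which are the same pair of pools each time, and age and pool cannot be told apart. A pool has 1 age, and the fit had no term for it. Of 4830 genes 130 were called (2.69%), 63 higher at P56 (1.3%) and 67 lower (1.39%), and 203 were called with a term for the P56 replicate number as a block. Of the 733 endothelial genes 33 were called, all lower at P56 (4.5%), with a median over the 733 of -0.49. The principal-cell markers moved the other way, with 7 of 15 called higher, and summed to 44552 CPM at P42 and to 105470 and 96398 CPM at P56. The 18 pan-endothelial genes summed to 3455 CPM at P42 and to 1667 and 1660 CPM at P56, and 0 of 16 tested were called by edgeR or DESeq2, with a median of -0.88 and 11 at an unadjusted p under 0.05. The part of this shift in the results on age was not tested. The count of calls was lower in DESeq2 and without the clusters led by genes of other cells, and those counts are given with the processing.

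Of the 9 basement membrane genes tested 5 were called lower at P56, with a median of -1.30, where 1.39% of all genes were called lower. Fibroblast markers moved with them: Col1a1 (-3.60), Col1a2 (-2.40) and Col3a1 (-2.66) were called lower, 3 of 5 tested, and the 7 fibroblast markers summed to 2970 CPM at P42 and to 678 and 1250 CPM at P56. The 7 pericyte markers summed to 499 CPM at P42 and to 120 and 284 CPM at P56. Rgs5, the 1 pericyte gene tested, was at -1.07 and was not called. The part of fibroblast transcripts in these calls was not tested beyond the count without the clusters led by genes of other cells, which was 0 of 6 tested (median -1.34). Col4a1, a chain of type IV collagen, was at 644 CPM at P42 and at 156 and 181 CPM at P56 (-1.70 ± 0.31, adjusted p = 0.00451). Col4a2 (-1.30), the laminin chains Lamb1 (-1.99) and Lamc1 (-2.30) and nidogen, Nid1, were the other calls. The call of Col4a2 was lost in 11 of 21 other settings and that of Col4a1 in 4 of 21. Without either P56 caput library, and with DESeq2, 0 of the 9 were called. The values of Col4a1 then were -1.64 (adjusted p = 0.125) without replicate 1, -1.69 (0.176) without replicate 2, -1.65 (0.0525) in DESeq2 and -1.44 (0.0719) without those clusters.

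Of the 8 heat-shock genes Hspa1b and Dnajb1 were called lower at P56, with a median of -0.79 over the list. The list summed to 4155 CPM at P42 and to 2108 and 2253 CPM at P56. Hspa1b was lost in 4 of 20 and Dnajb1 in 4 of 21 other settings. Of the 15 immediate early genes 11 were called lower at P56, with a median of -1.57, where 1.39% of all genes were called lower and the median of all genes was -0.02. Fosb was at 167 CPM at P42 and at 25.1 and 13.8 CPM at P56 (-3.01 ± 0.42, adjusted p = 7.3e-04), Nr4a1 at 214 against 41.8 and 43.7 CPM, and Fos at 4732 against 1383 and 1021 CPM. The cytokine-signal inhibitor Socs3 was at 259 against 50.2 and 56.4 CPM (-2.03 ± 0.31, adjusted p = 0.00127). In the other cells of the caput Fos was at 2505 CPM at P42 and at 497 and 485 CPM at P56, so it was lower there too. Without the caput library of P56 replicate 2 the count was 0, without that of replicate 1 it was 5, in DESeq2 it was 8, without the clusters led by genes of other cells it was 3 (Fosb, Nr4a1 and Socs3), and it was 4 when age was averaged over segments.

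Among vessel genes Plvap was at 424 CPM at P42 and at 134 and 113 CPM at P56 (-1.57 ± 0.33, adjusted p = 0.0110), and Esm1 was lower by -1.71 ± 0.36 (0.0110). Fabp4 (-3.83 ± 0.84, 0.0137), Cd36 (-2.42 ± 0.60, 0.0310) and Gpihbp1 (-1.14 ± 0.30, 0.0427) of the capillary list were called lower, as were Mmrn1 (-3.39 ± 0.68, 0.00827), the arterial matrix gene Fbln5 (-1.73 ± 0.36, 0.0107) and Fstl1 (-2.33 ± 0.37, 0.00212). The neuropeptide gene Nts, known in lymphatic endothelium, was at 53.9 CPM at P42 and at 13.9 and 0 CPM at P56 (-3.38 ± 0.82, 0.0263). Each of these calls was lost without the caput library of P56 replicate 2, when Plvap was at -1.31 (adjusted p = 0.449), Esm1 at -1.53 (0.529), Mmrn1 at -1.62 (0.470) and Fstl1 at -2.02 (0.205). Without the caput library of P56 replicate 1 the calls of Plvap (adjusted p = 0.130), Fabp4 (0.113), Cd36 (0.273), Gpihbp1 (0.455) and Fbln5 (0.174) were lost as well. Esm1 did not pass the filter on low counts in that fit, so its call was not tested there. Without the clusters led by genes of other cells Plvap stayed called, whereas Esm1 (-1.37, adjusted p = 0.230), Fabp4 (-2.41, 0.453), Cd36 (-0.36, 0.972), Gpihbp1 (0.245), Mmrn1 (-3.17, 0.120), Fbln5 (-1.16, 0.245), Fstl1 (-1.67, 0.138) and Nts (-3.05, 0.120) did not. In DESeq2 Plvap (0.240), Fabp4 (0.772), Gpihbp1 (0.492) and Mmrn1 (0.994) were not called, and Cd36 was given no adjusted p. Without cells with 2 or more pericyte markers Fabp4 (-3.53, 0.0900), Cd36 (-0.79, 0.770) and Gpihbp1 (0.115) were not called in edgeR. Gpihbp1 was lost in 14 of 21 other settings in all. Both P56 replicates were below P42 for each of these genes. For Fabp4, Cd36, Mmrn1, Nts and Fstl1 this was a condition of being named, so it adds no support.

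**Figure D4:**
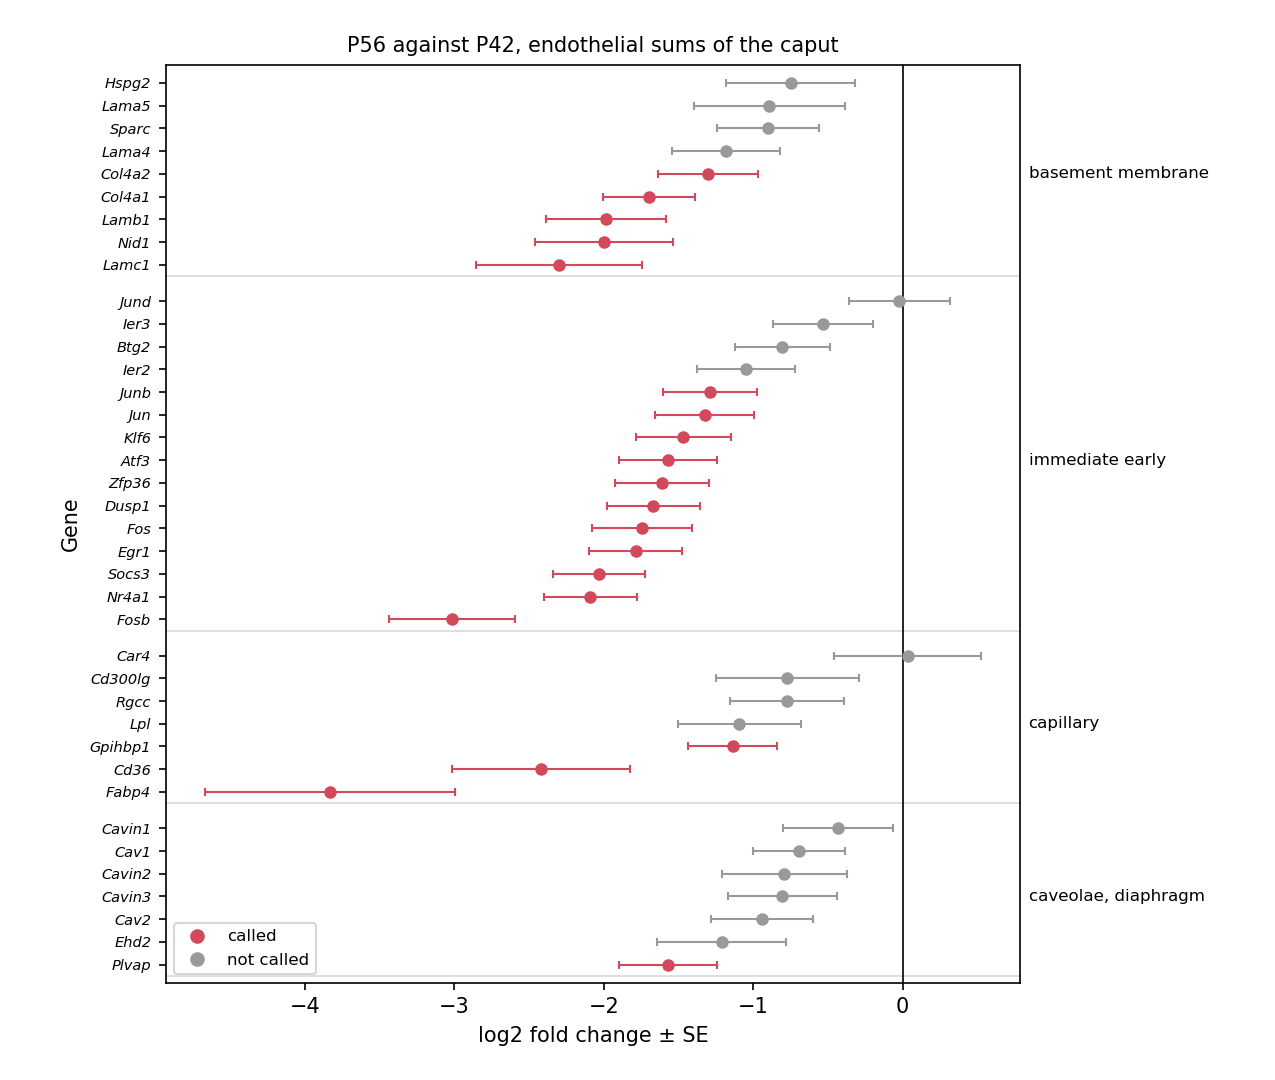
Log2 fold change with its SE (x axis) of each tested gene of 4 gene lists (y axis), P56 against P42 in endothelial sums of the caput. Red points passed both thresholds and grey points did not. Of the 9 basement membrane genes 5 are red and of the 15 immediate early genes 11 are red, and each red point lies below 0.

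The segment difference was also set against that of the other cells of the same libraries, in a fit with both kinds of sum. Of 16723 genes 216 differed in their caput difference (1.29%), 112 with a higher value in endothelium (0.67%) and 104 with a lower one (0.622%). The median of all genes in this contrast was 0.29, and values of genes outside the endothelial set are to be read relative to it. With the mitochondrial genes left out the split was 286 higher and 84 lower, and in DESeq2 it was 24 and 87. Among the 2370 endothelial genes (mean at least 2 times that of the other cells) 131 were called (5.53%), 47 higher (1.98%) and 84 lower (3.54%). Their median was -0.115. The 18 pan-endothelial genes had a median of -0.908, with 3 called lower (Robo4, Cldn5 and Ptprb) and 0 higher. Values of endothelial genes are to be read relative to these medians. Id3, a BMP-induced inhibitor of transcription, was at 427 to 798 CPM in all 9 endothelial sums. In the other cells it was at 64.8, 12.4 and 15.6 CPM in the caput, 134, 55.5 and 99.7 CPM in the corpus and 762, 558 and 643 CPM in the cauda. Its difference between the kinds of sum was 3.19 ± 0.21 on the log2 scale (adjusted p = 1.1e-45). P-values this small rest on an estimate of spread shared across genes, not on the 9 libraries of 1 gene alone. Of 11 genes of the BMP and TGF-beta list Id1 (2.44 ± 0.22), Id2 (1.02 ± 0.21) and Id3 were called, each higher, whereas 0 of 7 tested were called between the caput and the other segments within endothelium by edgeR or DESeq2, 3 of them at an unadjusted p under 0.05. Id2 was lost in 4 of 21 other settings and Id1 and Id3 in none.

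Thrsp, a regulator of lipid synthesis, was at 33.5 to 73.5 CPM in the caput endothelial sums and at a mean of 2.28 CPM in the other cells there, and at 43.2 to 61.0 against 26.4 to 41.8 CPM in the corpus (4.01 ± 0.37, adjusted p = 2.2e-24). On the opposite side, C1qtnf9 was at -6.22, with 7.37 to 18.1 CPM in the other cells of the caput and at most 0.446 CPM in those of corpus and cauda. Endothelial levels of C1qtnf9 overlapped between the segments. Of 6 lymphatic genes tested 4 were called, all lower (Prox1, Flt4, Mmrn1 and Reln). Of all genes 0.622% were called lower, and of the 2370 endothelial genes, to which 5 of the 6 belong, 3.54% were. These calls were lost in 8 of 21 other settings for Prox1 (highest adjusted p 0.804), 7 of 21 for Flt4 (0.964), 3 of 21 for Mmrn1 (0.0953) and 9 of 20 for Reln (0.639). Lyve1 and Pdpn were tested and not called, so the lower caput level of Lyve1 in endothelium was not told apart from that in the other cells. A Lyve1 UMI was found in 0.887% of the other cells in the caput and in 7.71% of those in the cauda. Mmrn1 was at 3.07, 0.415 and 0.146 CPM in the other cells of the caput, levels that were highest in the pool with the most endothelial cells. Abcg2, an efflux pump, was at 206 to 380 CPM in all endothelial sums and at 17.3 to 26.0 CPM in the other cells of the caput against 1.51 to 7.21 CPM elsewhere (-2.96 ± 0.25, adjusted p = 1.0e-28). Its segment difference within endothelium was -0.51 ± 0.22 and was not called.

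**Figure D5:**
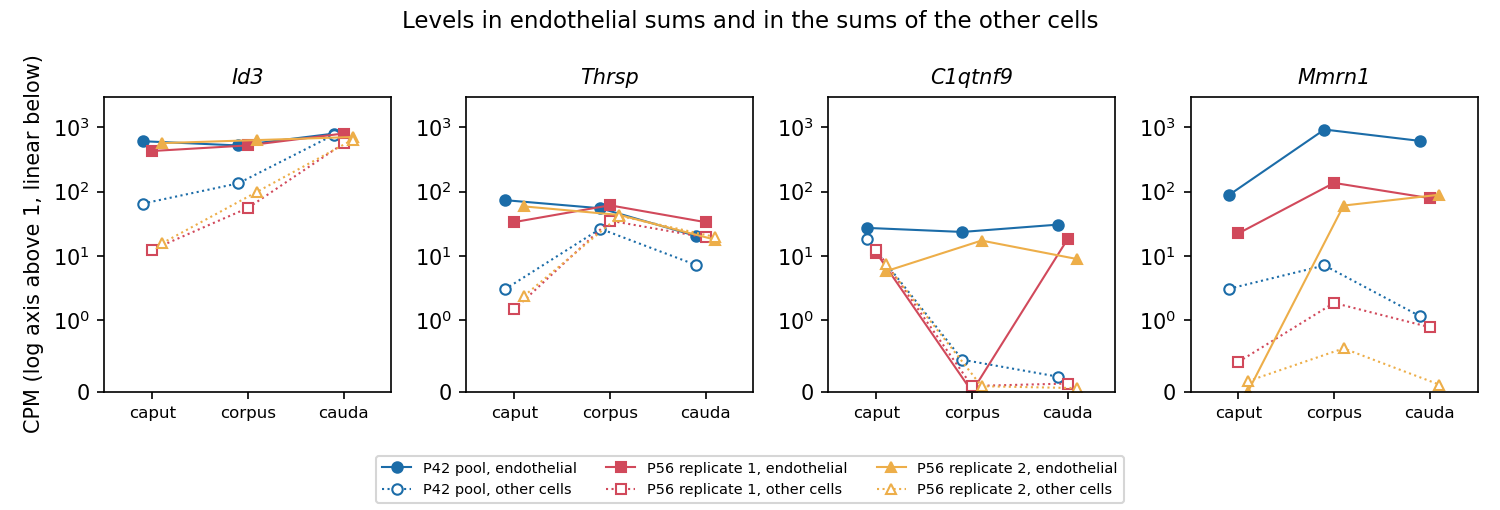
CPM (y axis, logarithmic above 1 and linear below) of 4 genes in endothelial sums (filled) and in sums of the other cells (open) of each library, by segment (x axis), with lines joining the libraries of a pool. Id3 stays between 427 and 798 CPM in endothelium, and the other cells reach 558 to 762 CPM in the cauda alone.

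The 652 cells fell into 10 clusters, which are described by their leading genes with no test, because the clusters were made from the same genes. A cluster of 45 cells was led by Lyve1, Mmrn1, Prox1 and Reln, with all 7 lymphatic markers higher than in the rest, and was called lymphatic-like. A cluster of 75 cells was led by Ackr1, Sele, Selp and Vcam1 and was called venous-like, with 5 of 7 venous markers at least 2 times higher than in the rest. All 7 pericyte markers were also at least 2 times higher there (summed to 1267 against 217 CPM), and Kcnj8 and Higd1b were among its 10 leading genes. A cluster of 19 cells led by Ube2c and Mki67 was cycling-like, with all 10 cycle genes higher. A cluster of 65 cells held 10 of 11 arterial genes higher, but smooth-muscle genes (Myh11 and Acta2) led it beside Sema3g, and it was left unnamed. The largest cluster, with 176 cells, held Esm1, Rgcc and the epithelial gene Wfdc18 among its 10 leading genes, beside the chemokine and cytokine genes Ccl3, Ccl4, Cxcl2 and Il1b and the immune regulator Rgs1. The macrophage genes C1qb, C1qc and Csf1r were at least 2 times higher in it than in the rest, and it was left unnamed. Both this cluster and that with smooth-muscle genes stayed in the fit without the 5 clusters led by genes of other cells. In that fit 177 of 3233 genes were called between the caput and the other segments, and Lyve1, Mmrn1, Prox1, Fgl2, Esm1, Rgcc and Ssu2 were among the 21 endothelial genes called. Clusters were kept for a vessel or cycling gene among their 10 leading genes. Lyve1, Mmrn1, Prox1, Esm1 and Rgcc were such genes, so their calls in this fit add no support. The 7 called higher were Rflnb, Rgcc, Aspn, the pericyte marker Rgs5, Fam167b, Esm1 and Ssu2. Of the genes named above Fabp4, Cd36, Flt4, Adgrg3 (adjusted p = 0.0535), Abi3bp (0.0576), Ptprg (0.0601), Prex2 (0.59, adjusted p = 0.368), Slc7a5 (0.88, 0.453), Klf4 (-1.18, 0.0626), Egr1 (-0.96, 0.0667), Atf3 (-1.77, 0.0667), Hspa1b (-1.15, 0.207) and Dnajb1 (-1.49, 0.0601) lost their call in it.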

How the data were processed

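The authors deposited 1 table of raw UMI counts per gene and cell barcode over 9 libraries, made by trimming (fastp), UMI handling (UMI-tools), alignment with STAR (version 2.7.3a) to GRCm38.p6 and gene counting (featureCounts), per the study's methods and the submitters' processing notes. It held 32195 genes, 44869 barcodes and 307987941 UMIs, or 23114756 to 50655384 UMIs in a library. Doublets were not removed here beyond the limits on genes and UMIs and the excluding genes. UMIs of endothelial cells, and of the other cells, were summed per library (at least 10 cells). Genes passed edgeR's filterByExpr and were tested on TMM-scaled sums with the quasi-likelihood method (edgeR 4.0.16, R 4.3.3) with segment and pool as terms, or segment, age and their interaction for age; DESeq2 1.42.0 was an alternative. P-values of the fits by segment measure the spread left between libraries after segment and pool. Those for age measure the spread between P56 replicates. In the test against the other cells they measure the spread left after library, kind of cell and segment. The quasi-likelihood method shares its estimate of spread across genes, so a p-value does not measure a gene's own spread between pools alone. Shares and medians were compared by an exact permutation of segments within pools (scipy 1.17.1). Cells were clustered with scanpy 1.11.5. The steps were tested on simulated counts. The members, the gene lists and the lists of alternatives were chosen with earlier results of these data known. Named genes were those with the largest changes in each direction (10 for the caput, 5 for the other comparisons) among called genes at 2 or more times the other cells with the same sign in every pool or replicate, plus members of the gene lists and, for levels, the 20 genes with the highest ratio to the other cells. Same-numbered libraries were taken to come from the same mice. The study's methods describe collecting the 3 segments of 5 mice into 1 tube each, but do not link the P56 replicate numbers to sets of mice. The deviations from the segment means of 2 libraries of 1 pool had correlations across genes of 0.03 to 0.48 (8 of 9 over 0.1), against -0.45 to 0.34 between pools (3 of 18 over 0.1). Most of this contrast lay between P42 and P56: within P56 the correlations were 0.03 to 0.35 in a pool (5 of 6 over 0.1) and -0.04 to 0.34 between pools (3 of 6). The pool was used as a block in the fits by segment, and results without it are given. The labels name no sequencing batch, and 0 columns were left without a sample.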

Additional observations from a re-analysis of the deposited data

Results flagged for a closer look

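A caput difference that was not the same in endothelial cells as in the other cells was found for 216 of 16723 genes by a test of that difference itself (the interaction of segment and kind of cell in edgeR). The number was 155 to 471 when single libraries were left out, 49 among the genes tested in the endothelial sums alone, and 111 in DESeq2. Id1, Id3 and C1qtnf9 were called in every setting in which they were tested. The other cells held endothelial transcripts as well: the 18 pan-endothelial genes summed in them to 206 CPM in the caput, 134 CPM in the corpus and 342 CPM in the cauda at P42 and to 19.4 to 59.7 CPM in the P56 libraries, and Plvap was at 16.9 CPM in the caput at P42 against 0.123 to 4.21 CPM in the other 8 libraries. The part of this in the 216 genes was not tested.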

How the results depend on the processing

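Counts of called genes moved with the following choices, and the cause was not tested unless the choice itself changed the number of cells or genes. For the caput the count of 359 became 671 with no filter on low counts, 552 with at least 2 of the 6 genes, 177 without the clusters led by genes of other cells and 210 to 520 when single libraries were left out (lowest without the caput library of P56 replicate 1). For cauda against corpus the count of 38 became 138 with no filter, 111 with at least 4 genes, 84 with at least 2 genes, 22 without those clusters and 16 (without the corpus P42 library) to 204 (without the cauda P42 library). For age in the caput the count of 130 became 33 in DESeq2, 211 with at least 4 genes, 271 in cells under 20% mitochondrial UMIs, 22 without those clusters and 9 (without the caput library of P56 replicate 2) to 284 (without the cauda library of P56 replicate 1), and 203 with a replicate block of the P56 pools, in which the same direction and call held for every named gene. For the test against the other cells the count of 216 became 111 in DESeq2, 342 with no filter, 370 without mitochondrial genes, 49 among genes of the endothelial sums and 155 to 471 without single libraries (highest without the corpus P42 library). Without the replicate block, that is with no pairing of the libraries of a pool, the caput count was 268 and that of cauda against corpus 8, and of the lymphatic genes Lyve1 alone stayed called. The share difference of 2.68 points was 1.09 after thinning and 1.19 to 3.86 without single pools. The mitochondrial difference of -7.58 points was -7.11 with at least 4 genes (1 pool left), -4.56 under 20% mitochondrial UMIs (2 pools left), -7.29 when UMIs were summed and -10.00 to -5.71 without single pools. With 2 pools left the smallest p was 0.111, so no call was possible. Cd36 turned to 0.93 with at least 4 genes and to 0.49 without the clusters led by other cells, Atf3 to 0.31 when age was averaged over segments, and Dtx1 and Tbx1 to 1.35 and 2.55 in the test against the other cells with at least 4 genes. Of all single-gene values recomputed, 1741 kept their call, 440 kept only their direction and 5 turned. Leaving out cells with pericyte markers, clusters led by genes of other cells, cells over 10% globin or globin genes, restricting the test to genes of the endothelial sums, and the block of the P56 pools, were chosen after seeing the data. Between 12 and 277 endothelial cells in a library limit what can be seen of rare vessel types.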

Other observations

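No call was made between segments for the barrier pumps of endothelial cells. Abcb1a was at 190 to 248 CPM in the caput, 204 to 380 CPM in the corpus and 142 to 382 CPM in the cauda (log2 fold change of the caput -0.34 ± 0.27, not called in edgeR), against 1.40 to 10.8 CPM in the other cells. Abcg2 was at 206 to 237, 319 to 380 and 214 to 352 CPM, so caput and corpus did not overlap (caput difference -0.51 ± 0.22, not called). Of the 14 genes of the barrier transport list 7 were tested, and the glucose transporter Slc2a1 was at 0.10 ± 0.45.

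The androgen receptor, through which the epididymal epithelium is maintained, was found in endothelial sums at 145 to 183 CPM in the caput, 51.6 to 105 CPM in the corpus and 66.7 to 173 CPM in the cauda, and in the other cells at 194 to 273, 87.5 to 170 and 86.5 to 195 CPM. Its caput difference was 0.78 ± 0.26 (adjusted p = 0.0887 in edgeR) and was not called. The estrogen receptor gene Esr1 (0.50 ± 0.42) and the glucocorticoid receptor gene Nr3c1 (0.11 ± 0.30) were not called, and Nr3c1 was at 2.73 times the level of the other cells.

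At least 2 of 10 cell-cycle genes were detected in 9.93% of caput, 11.2% of corpus and 5.41% of cauda endothelial cells (4 of 74 for the cauda, exact interval 1.49% to 13.3%), against 8.23%, 5.82% and 3.13% of the other cells. The P42 libraries held 36, 11 and 2 of these cells, and without the P42 pool the endothelial shares were 5.11% (9 of 176), 5.17% (3 of 58) and 3.45% (2 of 58). In P56 replicate 2 the endothelial share was below that of the other cells in the caput (5.08% against 8.68%) and in the cauda (0 of 12 cells against 2.78%).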
